A study of Mus musculus with 6 samples.

Results

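Transcripts of 38 autophagy genes were compared between the fractions of a drug-resistant mouse breast cancer cell population that stained high or low for β-galactosidase activity. The genes were chosen by symbol, as the core machinery that builds autophagosomes and the receptors that load cargo into them. All 38 were found among the 53465 genes of the table, and all 38 were among the 14038 genes with enough counts to be tested. Their counts ranged from 34 for Atg10 to 21182 for Sqstm1 in a library, and no member but Atg10 had fewer than 152 counts in any library.

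The cells were 4T1, a mouse mammary carcinoma line. Resistant cells had been taken from lesions that arose after surgery, under continuous dosing in vivo with the VEGF receptor kinase inhibitor axitinib (100 mg/kg/day). In culture they stayed in 0.5 µM axitinib, an exposure that both fractions share. They were stained with C12FDG, a fluorogenic β-galactosidase substrate used to mark senescent cells. The high-signal fraction is called SM positive (3 libraries) and the low-signal fraction SM negative (3 libraries), so both come from 1 resistant line and neither is an untreated or drug-sensitive control. Polyadenylated RNA was sequenced, with 18733801 to 26533528 estimated counts per library. Mitochondrial transcripts took 1.54% to 1.79% of the counts in SM negative and 1.56% to 1.90% in SM positive libraries.

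All 8 epithelial tumour markers were detected, with a summed level of 4484 to 4698 CPM (depth-scaled counts, with TMM factors between libraries) in SM negative and 4204 to 4519 CPM in SM positive libraries. The summed level of 8 fibroblast and pericyte markers was 4.55 to 5.13 and 6.02 to 8.41 CPM, most of it Pdgfra, and Lum had 0 counts in all 6 libraries. The summed level of 6 endothelial markers was 0.478 to 0.694 and 0.187 to 0.405 CPM, with Emcn at 0 counts. The summed level of 8 leukocyte markers was 6.57 to 8.81 and 4.90 to 6.43 CPM, most of it Cd68, with Adgre1 and Cd3e at 0 counts. In edgeR's test, 0 of the tested markers passed without the replicate number as a block. With it, 3 of 8 tested epithelial, 1 of 3 fibroblast and pericyte and 1 of 1 leukocyte markers passed, against 14.1% of all tested genes. Epcam (edgeR's adjusted p 0.0147), Cldn4 (0.00727), Krt19 (0.0263) and Cd68 (0.0148) were lower in SM positive cells and Pdgfra (0.0423) was higher. Krt19 was scarce, at means of 1.71 CPM in SM negative and 0.917 CPM in SM positive libraries, and Krt7, Krt8, Krt18 and Cdh1 did not pass. The part of these markers in the results was not tested. Each library pools many cells, so fewer cells with a transcript and less of it per cell cannot be told apart.

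Macroautophagy encloses cytoplasm in a double membrane and delivers it to the lysosome, the organelle whose β-galactosidase the sort measured. The ULK kinase complex starts the process, and a class III PI3-kinase complex marks the membrane with phosphatidylinositol 3-phosphate. Lipid transfer and scramblase proteins then expand the membrane. Ubiquitin-like conjugation enzymes attach ATG8 proteins (the LC3 and GABARAP families) to it, and cargo receptors bind both ATG8 and cargo. Much of this control acts on proteins, and transcript levels do not measure autophagic flux.

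The levels of these transcripts lay close together in the fractions. In the main test, edgeR's quasi-likelihood test over all genes with Benjamini-Hochberg adjustment, 0 of the 38 passed an adjusted p of 0.05, where 1.35% of all tested genes did. At an unadjusted p under 0.05 there were 4 of 38, against 13.6% of all genes. DESeq2 called 1 of the 38 (Atg9b, lower), against 2.38% of all genes, and limma-voom called 0, against 1.23%. When libraries were paired by replicate number, as a block in the same test, 4 of the 38 passed. Atg9b, Sqstm1 and Pik3c3 were lower in SM positive cells and Atg5 was higher, each by less than 1.5-fold. This is 10.5% of the members, against 14.1% of all tested genes in the same fit, so the share was not above the background. By direction, 1 of 38 was higher, against 8.52% of all genes, and 3 of 38 were lower, against 5.60%. With DESeq2 and the block 2 of 38 passed (Atg9b and Sqstm1), against 4.39% of all genes. With no filter and the block 6 passed, Atg2b and Atg9a (both higher) in addition, against 8.77%.

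The median log2 change (SM positive over SM negative) was 0.009 across the 38 genes and -0.001 over all tested genes. The median absolute log2 change was 0.067 for the members and 0.098 for all genes. Estimates ran from -0.36 for Atg9b to 0.35 for Atg10, and 23 were above 0. For 37 of the 38, the 95% interval of the change lay within 1.5-fold in either direction, in both fits. The exception was Atg10, the member with the fewest counts. The same held for 76.2% of all tested genes without the block and 79.6% with it. Mean levels ran from 2.24 to 826.0 CPM for the members and from 0.269 to 10896.7 CPM for all tested genes. The comparisons were not matched for level, so they do not show that members were steadier than genes of like level.

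**Figure D1:**
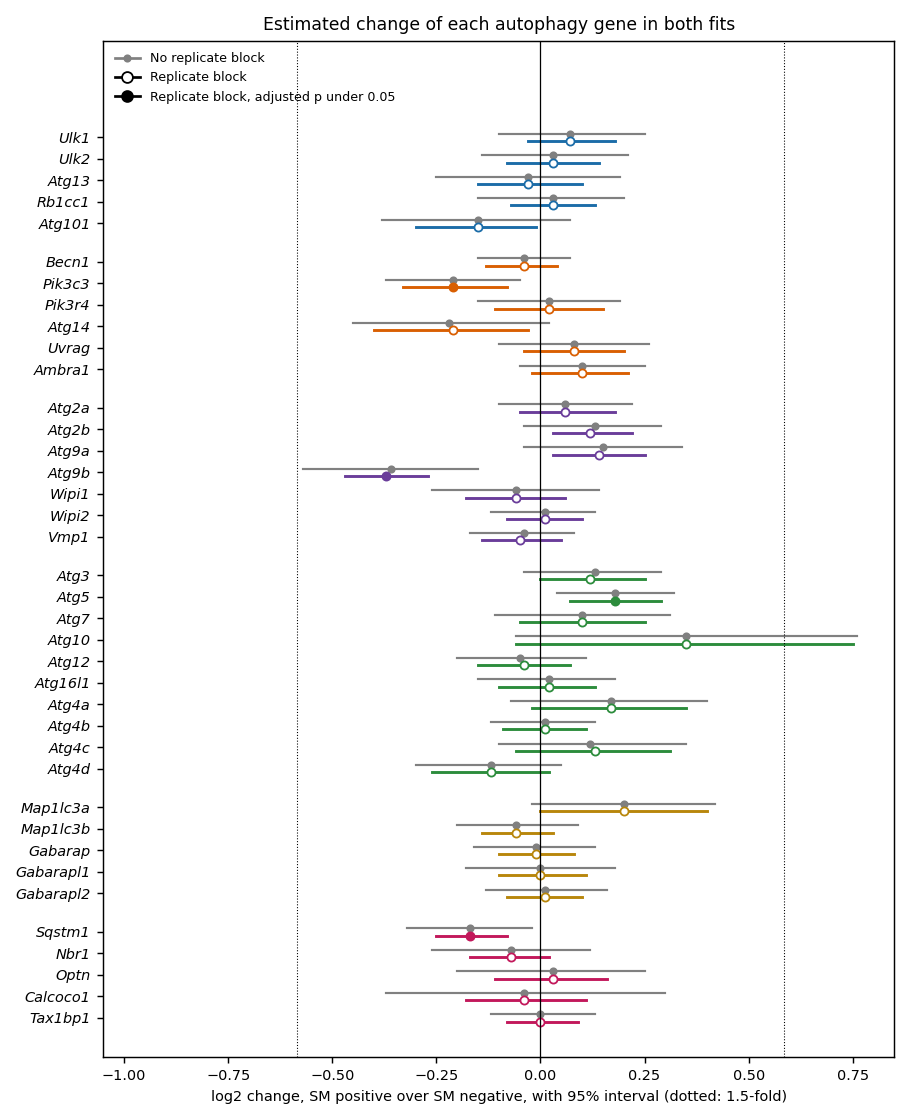
Log2 change of each of the 38 genes (SM positive over SM negative) with its 95% interval, without the replicate block (grey) and with it (coloured by role). Filled points are the 4 genes past an adjusted p of 0.05 with the block, and the interval of Atg10 alone crosses a dotted line, which marks 1.5-fold.

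Pair by pair, 10 of the 38 genes were higher in SM positive in all 3 pairs and 8 were lower in all 3, against 23.9% and 22.7% of all tested genes. That is 47.4% with the same direction in every pair, against 46.6% of all tested genes. Without regard to pairs, the libraries of the fractions did not overlap for 7 of the 38 (18.4%), against 19.9% of all tested genes. Of these 7, Atg5, Atg10 and Map1lc3a were higher, and Becn1, Pik3c3, Atg9b and Sqstm1 were lower, where 10.4% and 9.47% of all tested genes were so. The genes with the same direction in all pairs made up 4 of 6 PI3-kinase genes, 4 of 7 membrane supply genes, 5 of 10 conjugation genes, 2 of 5 in each of the ULK and ATG8 groups, and 1 of 5 cargo receptors. Any difference counted, however small, so Atg7 (log2 ratio 0.00 in pair 1) and Atg4d (-0.00 in pair 2) are among the conjugation genes.

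**Figure D2:**
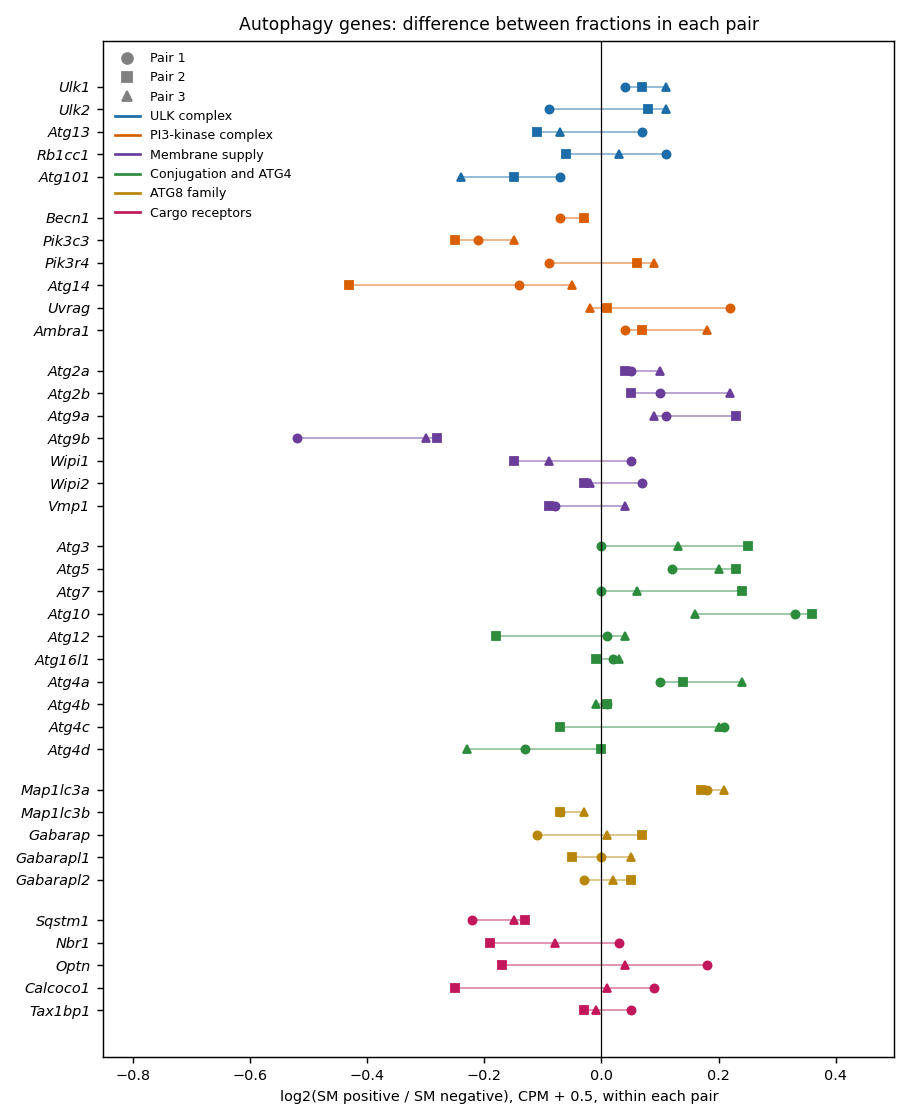
Log2 ratio of SM positive to SM negative CPM (with 0.5 CPM added to each) within each same-numbered pair, for the 38 genes grouped by role. Points left of 0 in all pairs include those of Atg9b (-0.52, -0.28 and -0.30), Sqstm1 and Pik3c3, and those of Atg5 lie right of 0.

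The largest difference among the genes that passed with the block was in Atg9b, 1 of a pair of genes for the ATG9 scramblase that travels on vesicles and seeds the autophagosome membrane. Atg9b (ENSMUSG00000038295.14, GRCm38 chromosome 5, 24384181 to 24392143, minus strand) stood at 86.7, 94.6 and 95.3 CPM in SM negative replicates 1 to 3 and at 60.4, 77.7 and 77.0 CPM in SM positive replicates 1 to 3. Every SM positive library was below every SM negative library, and SM positive replicate 1 was the lowest. The means were 92.2 ± 4.77 and 71.7 ± 9.80 CPM (SD, n = 3), 22.3% lower in SM positive cells. The log2 change was -0.36 ± 0.0938 (SE) with an adjusted p of 0.114 in edgeR's test without the block, and -0.37 ± 0.0484 with an adjusted p of 3.03e-05 with it. With the block it stayed under 0.05 with each pair left out in turn (largest adjusted p 0.00738).

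Its paralog Atg9a, the form found in most tissues, did not pass in either fit with the usual filter. It stood at 36.9, 39.1 and 35.3 CPM in SM negative and at 40.0, 45.9 and 37.5 CPM in SM positive libraries, with overlap between the fractions (log2 change 0.15, adjusted p 0.495 in edgeR's test, and 0.073 with the block). Within a library, the ratio of Atg9b to Atg9a CPM was 2.35, 2.42 and 2.70 in SM negative and 1.51, 1.69 and 2.06 in SM positive replicates 1 to 3. This ratio does not depend on library scaling, and its values did not overlap between fractions. The mean log2 ratio differed by -0.52 (exact permutation p = 0.1, 2-sided, without regard to pairs). This p is the smallest that 3 against 3 libraries allow, and the ratio was chosen after its values were seen, so the p adds no support. Nos3, on the opposite strand, shares 294 exonic bases with Atg9b and stood at 0.107 to 0.456 CPM, far below it. In Atg9a, 32.0% of all stretches of 31 bases are shared with another gene, chiefly the overlapping transcript Gm29253, which had 0 to 0.654 CPM.

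Sqstm1 encodes p62, a cargo receptor that binds ubiquitin and LC3 and is itself degraded by autophagy. It was the most abundant of the 38 transcripts. Sqstm1 (ENSMUSG00000015837.15, chromosome 11, 50199366 to 50210827, minus strand) stood at 843.0, 844.7 and 934.2 CPM in SM negative and at 721.6, 772.4 and 840.4 CPM in SM positive replicates 1 to 3. SM positive libraries were all below SM negative libraries, by a small margin between SM positive replicate 3 and SM negative replicate 1. The means were 874.0 ± 52.2 and 778.1 ± 59.6 CPM (SD, n = 3), 11.0% lower. The log2 change was -0.17 ± 0.0682 (SE), with an adjusted p of 0.308 in edgeR's test and 0.00776 with the block. Leaving out pair 1 or pair 3 ended the call in the blocked fit (largest adjusted p 0.18). Mrnip, which shares 580 exonic bases on the opposite strand, stood at 1.2 to 1.79 CPM.

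Pik3c3 encodes VPS34, the catalytic subunit of the class III PI3-kinase. Pik3c3 (ENSMUSG00000033628.15, chromosome 18, 30272747 to 30348126, plus strand) stood at 29.5, 29.5 and 27.5 CPM in SM negative and at 25.5, 24.7 and 24.7 CPM in SM positive libraries. The fractions did not overlap, and the difference was 13.3% of the SM negative level. The log2 change was -0.21 ± 0.0719 (SE), with an adjusted p of 0.235 in edgeR's test and 0.0221 with the block. Leaving out any of the 3 pairs ended the call (adjusted p 0.0742 to 0.147), as did DESeq2 with the block (0.374).

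Atg5, the acceptor of ATG12 in the ligase that attaches ATG8 to lipid, was the 1 member higher in the blocked fit. Atg5 (ENSMUSG00000038160.7, chromosome 10, 44268358 to 44364291, plus strand) stood at 39.0, 38.1 and 38.4 CPM in SM negative and at 42.2, 44.7 and 44.2 CPM in SM positive libraries. All SM positive libraries were above all SM negative libraries, by 13.5% on the fitted scale. The log2 change was 0.18 ± 0.0621 (SE), with an adjusted p of 0.228 in edgeR's test and 0.0217 with the block. Each pair left out ended this call too (adjusted p 0.087 to 0.133), as did DESeq2 with the block (0.339).

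The promoters of Atg5, Atg9b and Sqstm1 are shown because these genes differed with the block in opposite directions. Pik3c3, also lower with the block, had no promoter window available, so it could not be searched. Each is the 250 bases before the RefSeq start (GRCm38.p6), read 5′ to 3′ on the gene's strand, at chr10:44268089-44268338 (plus), chr5:24392144-24392393 (minus) and chr11:50210821-50211070 (minus). Capitals mark matches to the motifs searched for.
Atg5: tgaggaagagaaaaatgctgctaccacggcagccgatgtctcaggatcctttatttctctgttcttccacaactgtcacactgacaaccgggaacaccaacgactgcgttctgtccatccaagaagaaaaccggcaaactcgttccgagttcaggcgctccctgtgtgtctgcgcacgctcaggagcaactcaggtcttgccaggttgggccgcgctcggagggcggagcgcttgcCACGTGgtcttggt
Atg9b: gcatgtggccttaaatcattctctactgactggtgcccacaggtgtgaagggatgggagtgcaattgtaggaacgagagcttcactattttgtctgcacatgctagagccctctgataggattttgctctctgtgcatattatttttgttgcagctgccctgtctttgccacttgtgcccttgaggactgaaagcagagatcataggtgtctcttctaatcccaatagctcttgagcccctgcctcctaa
Sqstm1: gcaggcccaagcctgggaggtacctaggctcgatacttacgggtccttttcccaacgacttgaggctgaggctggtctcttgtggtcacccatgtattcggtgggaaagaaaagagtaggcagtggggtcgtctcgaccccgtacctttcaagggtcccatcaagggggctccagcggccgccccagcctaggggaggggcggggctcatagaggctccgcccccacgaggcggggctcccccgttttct
Both strands were searched for CACGTG (the E-box core of the CLEAR element bound by TFEB and TFE3), TGACNNNGC (the antioxidant response element bound by NRF2) and GTAAACA (a FOXO motif). Atg5 has a CACGTG that begins 14 bases before the start, and the windows of Atg9b and Sqstm1 hold none of the 3 motifs. Sequence beyond these 250 bases was not searched, so the genes may have such motifs elsewhere. Windows were found for 32 of the 38 genes, 38 windows in all. CACGTG was in 3 of them (7.89%), those of Atg3, Atg5 and Atg7, and in 6.02% of 32851 promoter windows genome-wide. TGACNNNGC was in 6 (15.8%), those of Atg13, Tax1bp1, Ulk2 and Vmp1, and in 10.2% genome-wide. Several of the 6 are windows of Vmp1, and by gene the share was 4 of 32 (12.5%). The genome-wide share counts windows and was not computed by gene, so it is not a like value for the 12.5%. GTAAACA was in 0 of 38, and in 3.17% genome-wide. A match is a string of letters and not a site shown to be bound.

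**Figure D3:**
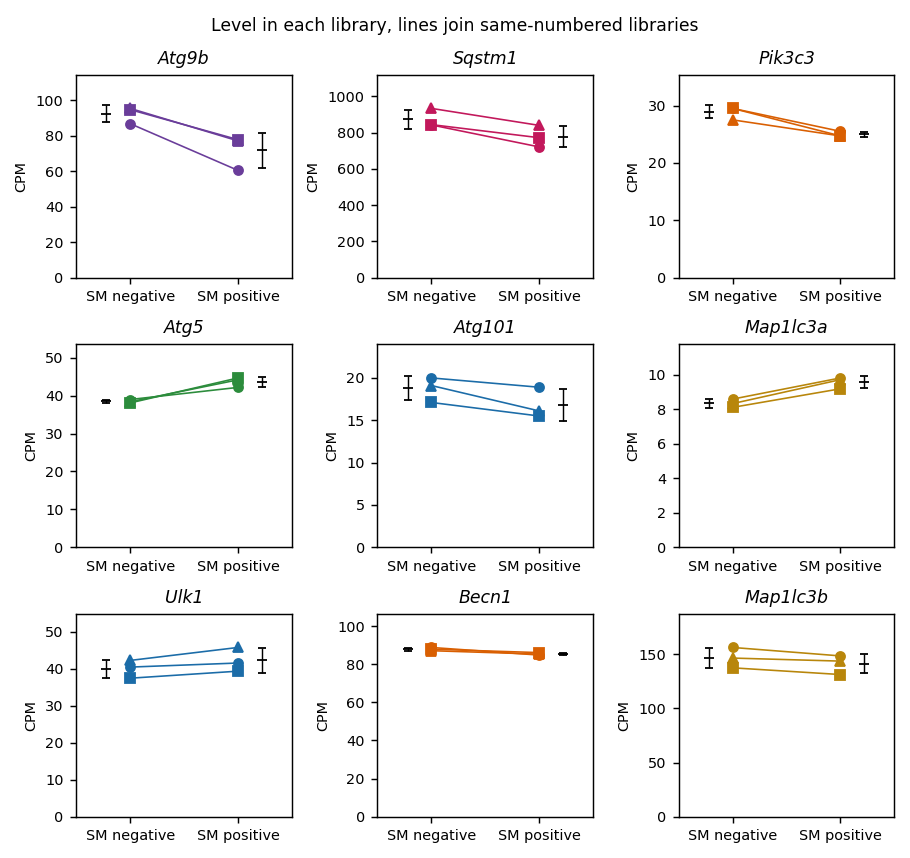
CPM in each library for the 9 genes described in full, with each axis from 0, lines joining same-numbered libraries, and bars for the mean and SD of each fraction (n = 3). All 3 lines fall for Atg9b, Sqstm1 and Pik3c3 and rise for Atg5, the genes that passed with the block. The lines also fall for Atg101, Becn1 and Map1lc3b and rise for Map1lc3a and Ulk1, none of which passed in either fit. For Ulk1, Becn1 and Map1lc3b the log2 ratios in the pairs lie between -0.07 and 0.11.

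Of the ULK complex, which integrates nutrient signals and starts autophagy, 0 of 5 genes passed in either fit. Over all tested genes 1.35% passed without the block and 14.1% with it, so 0 of 5 does not set the group apart. The summed level of the complex was 183.6 to 191.9 CPM in SM negative and 184.9 to 196.4 CPM in SM positive libraries. Ulk1, the kinase itself, stood at 40.4, 37.4 and 42.2 CPM in SM negative and at 41.5, 39.3 and 45.7 CPM in SM positive libraries. The libraries overlapped, and each pair differed upward by a little (log2 change 0.07, 95% interval -0.10 to 0.25, adjusted p 0.751 in edgeR's test). Atg101, a small stabilising subunit, had the smallest p of the group. It stood at 20.0, 17.1 and 19.1 CPM and at 18.9, 15.5 and 16.1 CPM, lower in each pair but with overlapping fractions (log2 change -0.15, adjusted p 0.571 in edgeR's test, and 0.167 with the block). The second kinase gene Ulk2 averaged 48.8 ± 1.24 and 50.1 ± 4.92 CPM, the adaptor Atg13 27.8 ± 1.70 and 27.2 ± 3.51 CPM, and the scaffold Rb1cc1 (FIP200) 51.9 ± 4.97 and 52.8 ± 2.41 CPM (SD, n = 3). The log2 changes of these 3 lay between -0.03 and 0.03.

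In the PI3-kinase group, 1 of 6 genes (Pik3c3) passed with the block, against 14.1% of all tested genes. Becn1 encodes Beclin 1, the regulatory subunit on which activators and BCL2-type inhibitors act. It stood at 88.8, 87.9 and 87.1 CPM in SM negative and at 84.8, 86.1 and 85.3 CPM in SM positive libraries. The fractions did not overlap, though the margin was narrow and the replicates of each lay close together (log2 change -0.04, 95% interval -0.15 to 0.07, adjusted p 0.785 in edgeR's test). Cntd1, which shares 3104 exonic bases with Becn1 on the opposite strand, stood at 0.253 to 0.948 CPM. Atg14, which directs the complex to autophagosome formation, averaged 13.3 ± 1.45 and 11.4 ± 0.526 CPM and was lower in each pair, at log2 ratios of -0.14, -0.43 and -0.05. It did not pass (adjusted p 0.402 in edgeR's test, and 0.122 with the block). Uvrag, the subunit of the endosomal form of the complex, averaged 33.0 ± 0.136 and 34.8 ± 3.43 CPM. The kinase-associated scaffold Pik3r4 (VPS15) averaged 26.0 ± 0.0356 and 26.4 ± 1.73 CPM. Ambra1, an activator of Beclin 1, averaged 32.4 ± 1.44 and 34.8 ± 0.739 CPM. Their log2 changes lay between 0.02 and 0.10, none past the threshold.

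The membrane supply group holds the ATG2 lipid transfer proteins, the ATG9 and VMP1 scramblases and the WIPI proteins that read phosphatidylinositol 3-phosphate. Of its 7 genes 1 (Atg9b) passed, with the block, against 14.1% of all tested genes. Atg2b averaged 68.7 ± 3.95 and 74.9 ± 5.97 CPM and was higher in each pair, at log2 ratios of 0.10, 0.05 and 0.22 (adjusted p 0.505 in edgeR's test, and 0.0775 with the block). Gskip, which shares 383 exonic bases with Atg2b on the opposite strand, stood at 19.9 to 25 CPM. Its log2 change was 0.17 beside 0.13 for Atg2b, and whether counting told the strands apart is unknown here. Atg2a averaged 31.1 ± 0.995 and 32.5 ± 1.66 CPM, Wipi1 31.4 ± 1.2 and 30.2 ± 3.41 CPM, and Wipi2 95.9 ± 1.79 and 96.3 ± 4.74 CPM. These 3 changed by at most 0.06 on the log2 scale.

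Vmp1, an ER scramblase, stood at 107.5, 112.0 and 107.7 CPM in SM negative and at 101.9, 105.0 and 110.5 CPM in SM positive libraries (log2 change -0.04, adjusted p 0.794 in edgeR's test). The fractions overlapped. Vmp1 is of interest because the hairpin of miR-21, a microRNA abundant in many tumours, lies within its exons on the same strand. Its own row, Mir21a, had 0 counts in all 6 libraries, and polyadenylated libraries do not measure the mature microRNA, so Vmp1 values are no measure of it. The mature sequences (RefSeq, GRCm38.p6, chromosome 11, minus strand) are shown so that the overlapping product is clear, with the seed (bases 2 to 8) in capitals.
mmu-miR-21a-5p: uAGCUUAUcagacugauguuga
mmu-miR-21a-3p: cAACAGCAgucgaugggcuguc

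Of the 10 conjugation genes, 1 (Atg5) passed with the block, against 14.1% of all tested genes. The estimate was above 0 for 8 of these 10 and for 6987 of all 14038 tested genes. Their median log2 change was 0.114, and the group was not tested. Their summed level was 258.4 to 263.8 CPM in SM negative and 266.7 to 274.6 CPM in SM positive libraries. Atg3, the enzyme that transfers ATG8 to lipid, averaged 28.2 ± 1.86 and 30.8 ± 0.776 CPM (log2 change 0.13, adjusted p 0.522 in edgeR's test). Atg7, the activating enzyme of both conjugation routes, averaged 19.6 ± 1.51 and 21 ± 1.84 CPM (log2 change 0.10, adjusted p 0.702 in edgeR's test). Atg10, which joins ATG12 to ATG5, was the scarcest member at 1.97 ± 0.147 and 2.51 ± 0.25 CPM. Its libraries did not overlap, but its log2 change of 0.35 had a 95% interval of -0.06 to 0.76, and it did not pass (adjusted p 0.452 in edgeR's test, and 0.259 with the block). Atg12 and Atg16l1, the partners of ATG5 in the ligase, averaged 47.9 ± 2.90 and 46.4 ± 2.01 CPM, and 32.9 ± 1.89 and 33.2 ± 1.66 CPM. Neither passed, and whether Atg5 differed more than its partners was not tested.

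The ATG4 proteases trim new ATG8 and release it from membranes. Atg4b, the most active of them, averaged 48.6 ± 0.816 and 48.8 ± 0.553 CPM, with log2 ratios of 0.01, 0.01 and -0.01 in the pairs. Atg4a averaged 9.96 ± 0.723 and 11.2 ± 0.848 CPM, Atg4c 10.7 ± 0.558 and 11.6 ± 0.889 CPM, and Atg4d 22.8 ± 0.760 and 20.9 ± 1.26 CPM. None of the 4 passed in either fit, where 14.1% of all tested genes did with the block. Atg4a is uncertain, since 60.8% of all stretches of 31 bases are shared, chiefly with the pseudogene Atg4a-ps. Atg4d shares 1405 exonic bases with Kri1 on the opposite strand, and Kri1 stood higher, at 43.2 to 50.0 CPM, with a log2 change of -0.13 beside -0.12 for Atg4d. The library kit marks strand, but whether counting used it is unknown here, so reads of this pair may not have been told apart.

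Of the 5 ATG8 genes, 0 passed in either fit, against 1.35% of all tested genes without the block and 14.1% with it. Their summed level was 411.1 to 465.4 CPM in SM negative and 414.5 to 444.3 CPM in SM positive libraries. Map1lc3b, the LC3 form most often used as an autophagosome marker, stood at 156.3, 137.5 and 146.5 CPM in SM negative and at 148.5, 131.3 and 143.7 CPM in SM positive libraries. The fractions overlapped, and replicate 2 was the lowest in both. Each pair was lower by a little in SM positive cells, at log2 ratios of -0.07, -0.07 and -0.03. The log2 change was -0.06 (95% interval -0.20 to 0.09, adjusted p 0.784 in edgeR's test). Map1lc3a had the smallest p of the family and low levels, at 8.6, 8.12 and 8.34 CPM and at 9.83, 9.20 and 9.73 CPM. Its fractions did not overlap, and its pairs differed by 0.18, 0.17 and 0.21 on the log2 scale, but it did not pass (adjusted p 0.425 in edgeR's test, and 0.187 with the block). Gabarap averaged 152.2 ± 13.1 and 150.8 ± 3.04 CPM, Gabarapl1 43.5 ± 3.67 and 43.6 ± 3.28 CPM, and Gabarapl2 81.8 ± 5.12 and 82.4 ± 4.05 CPM. The log2 changes of these 3 were within 0.01 of 0.

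Of the cargo receptors, 1 of 5 (Sqstm1) passed with the block, against 14.1% of all tested genes. Tax1bp1 and Optn, receptors for ubiquitin-marked cargo, averaged 152.7 ± 4.46 and 153.1 ± 6.40 CPM, and 29.3 ± 1.42 and 29.8 ± 4.36 CPM. Nbr1, which acts with p62, averaged 94.0 ± 4.58 and 89.4 ± 11.3 CPM (log2 change -0.07, adjusted p 0.788 in edgeR's test). Calcoco1, a receptor for parts of the ER and Golgi, averaged 23.4 ± 2.56 and 22.9 ± 4.81 CPM. In Nbr1, Optn and Calcoco1 pair 1 was higher and pair 2 lower in SM positive cells. None of Nbr1, Optn, Calcoco1 and Tax1bp1 had the same direction in all 3 pairs, as Sqstm1 did, and the difference between receptors was not tested.

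Levels were compared between genes per kilobase of merged exon length, as a mean over the 6 libraries. Sqstm1 was highest at 246.1 CPM per kb, followed by Gabarap at 82.1, Gabarapl2 at 35.3 and Vmp1 at 27.8 CPM per kb. Atg10 was lowest at 1.3 CPM per kb. The order within a family depends on the length used. Per kb of the APPRIS principal transcript, a choice made after seeing the data, Sqstm1 stood at 405.5 and Gabarap at 112.1 CPM per kb. Map1lc3b moved from 19.2 to 56.9 CPM per kb, because its merged exons are 7.52 kb and its principal transcript is 2.53 kb.

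Of the summed ATG8 level per kb of merged exons, Gabarap made up 49.7% ± 1.33 in SM negative and 49.3% ± 0.799 in SM positive libraries (SD, n = 3). Gabarapl2 made up 21.2% ± 0.929 and 21.4% ± 0.946. Gabarapl1 made up 12.4% to 13.6% in SM negative and 12.6% to 13.7% in SM positive libraries. Map1lc3b lay a little below it, at 11.6% to 12.1% and 10.8% to 11.7%, and Map1lc3a was lowest with 4.27% ± 0.181 and 4.90% ± 0.129. With principal transcript lengths Map1lc3b ranked second instead, with 23.1% ± 0.518 and 22.4% ± 0.890. GABARAP-type transcripts thus exceeded LC3-type transcripts in sum under both lengths and in both fractions, and the mix moved little with the sort.

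Atg9b exceeded Atg9a per kb of merged exons by 3.43 to 3.95 times in SM negative and 2.21 to 3.00 times in SM positive libraries. With principal transcript lengths the ratios were 2.47 to 2.85 and 1.59 to 2.16 times. In humans ATG9B is known mainly from the placenta and pituitary gland. Ulk1 and Ulk2 were close, with a ratio of Ulk2 to Ulk1 of 1.16 to 1.45 on merged exons. On principal transcripts it was 1.06 to 1.21 in SM negative and 0.971 to 1.21 in SM positive libraries, so the order turned in an SM positive library.

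**Figure D4:**
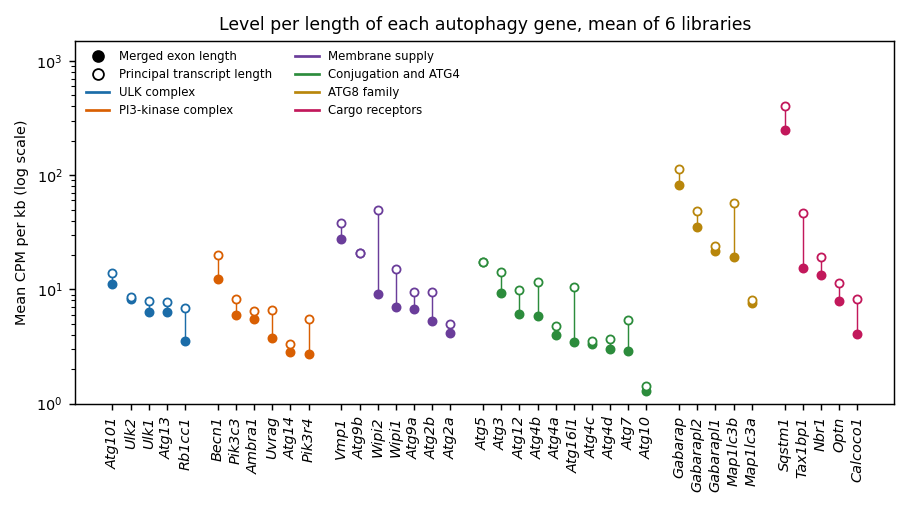
Mean CPM per kb over 6 libraries (log axis) for each of the 38 genes, ordered within each role by the level per kb of merged exons (filled) and shown also per kb of the principal transcript (open). Sqstm1 and Gabarap are highest under both lengths, and the gap between lengths is widest for Wipi2 (9.12 and 49.1).

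Beyond the 38, 83 genes in 5 lists of regulators and later steps were examined, of which 80 were tested. In edgeR's test 3 of the 80 were higher and 0 lower, against 1.14% and 0.214% of all genes. With the block 8 were higher and 4 lower (15.0%, against 14.1% of all genes). By list, those past the threshold with the block were 3 of 23 mTORC1 and AMPK genes, 1 of 16 fusion genes, 2 of 15 other autophagy genes, 3 of 16 other receptors and 3 of 10 transcription factors. The 3 that passed in both fits were Deptor, Trp53inp2 and Foxo1.

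Deptor, a subunit that inhibits mTOR, stood at 44.7, 47.4 and 48.5 CPM in SM negative and at 60.6, 62.8 and 65.8 CPM in SM positive libraries. The fractions were well apart, and Deptor rose by a log2 change of 0.43 ± 0.0632 (SE, adjusted p 0.0125 in edgeR's test, and 2.10e-06 with the block). Trp53inp2, whose product (DOR) binds ATG8 proteins and promotes autophagosome formation, stood at 17.6, 20.1 and 19.4 CPM and at 26.4, 27.3 and 28.2 CPM. It rose in each pair, by a log2 change of 0.52 ± 0.0817 (SE, adjusted p 0.0161 in edgeR's test, and 1.08e-05 with the block). Foxo1, a transcription factor that activates autophagy genes, stood at 33.3, 34.5 and 36.4 CPM and at 41.5, 44.8 and 48.4 CPM, again without overlap. It rose by a log2 change of 0.37 ± 0.0762 (SE, adjusted p 0.0459 in edgeR's test, and 5.08e-05 with the block).

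Without the block, the calls of Deptor and Trp53inp2 ended when any of SM negative replicates 1, 2 and 3 or SM positive replicate 3 was left out (largest adjusted p 0.0608 and 0.0745). The Foxo1 call ended with every library left out except SM positive replicate 1 (largest adjusted p 0.167), and with library totals, the 1 CPM filter and limma-voom (at most 0.0549). With the block, all 3 passed with each pair left out.

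The other 9 passed in the blocked fit and not in the main test. Bnip3, a hypoxia-induced mitophagy receptor, stood at 77.5, 123.7 and 94.3 CPM in SM negative and at 92.6, 159.3 and 121.8 CPM in SM positive replicates 1 to 3. The replicate number moved it more than the fraction, so the fractions overlap, but each pair rose (log2 change 0.33 ± 0.0431 SE, adjusted p 2.29e-05 with the block in edgeR's test, and 0.659 without). Foxo3, a relative of Foxo1, averaged 51.7 ± 7.69 and 63.8 ± 9.41 CPM and rose in each pair (adjusted p 0.000219 with the block in edgeR's test). Atl3, an ER-phagy receptor, Rraga, a Rag GTPase that recruits mTORC1 to the lysosome, and Sh3glb1, a membrane-bending partner of Beclin 1, rose by log2 changes of 0.15, 0.16 and 0.13.

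The 4 that fell with the block were Ddit3, Epg5, Lamtor5 and Stbd1. Ddit3 encodes the stress factor CHOP and averaged 47.9 ± 5.03 and 40.1 ± 4.42 CPM (log2 change -0.25 ± 0.0495 SE, adjusted p 0.00149 with the block in edgeR's test). Epg5, a tether for fusion with lysosomes, Lamtor5, a Ragulator subunit, and Stbd1, a glycogen-binding receptor, fell by 0.18, 0.14 and 0.19 on the log2 scale. Foxo3, Rraga and Sh3glb1 lie outside the rule for named genes and were chosen after their values were seen. In the blocked fit Bnip3, Foxo3 and Ddit3 passed with each pair left out, while Atl3, Rraga, Sh3glb1, Epg5, Lamtor5 and Stbd1 lost the call with at least 1 pair left out, and with DESeq2 (which ended Ddit3 too).

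**Figure D5:**
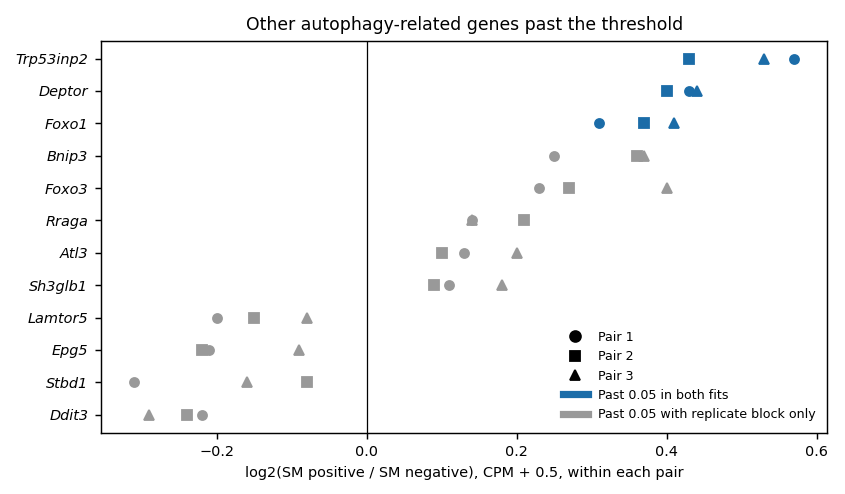
Log2 ratio of SM positive to SM negative CPM (with 0.5 CPM added) in each pair for the 12 autophagy-related genes outside the 38 that passed an adjusted p of 0.05, in both fits (blue) or with the replicate block alone (grey). Trp53inp2, Deptor and Foxo1 lie at 0.31 or more in each pair, and Ddit3 lies at -0.22 or below in each.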

How the data were processed

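GRCm38 is the build in the submitters' processing notes, which also list RSEM 1.3.1, STAR 2.6.0a and FastQC 0.11.5 without roles. The authors deposited expected counts per gene, partly not whole (13.5% to 14.4% of values). The annotation release and strand setting were not stated in labels or headers (not given in the sources used here), though the kit is stranded. Counts were rounded, and 99.8% of 53465 identifiers matched GENCODE M21 without version numbers.

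Genes were filtered with filterByExpr (14038 left), scaled by TMM and tested with edgeR 4.0.16 (R 4.3.3, robust quasi-likelihood fit, Benjamini-Hochberg adjustment over all tested genes, threshold 0.05). The SE is the log2 change divided by the square root of the test's F, and 95% intervals use it with the test's degrees of freedom. limma-voom used limma 3.58.1, and DESeq2 was 1.42.0. Other settings were RLE factors, library totals, no filter, more than 1 CPM in 3 libraries, the replicate number as a block, and leaving out libraries or pairs.

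The labels do not say what replicate numbers mark or that replicates are separate cultures. Without the block, p-values measure the spread between libraries of a fraction. With it, they measure the spread of the differences within pairs. Either spread may be technical. Deviations from fraction means correlated at 0.22, 0.28 and 0.196 between same-numbered libraries and at -0.175 to -0.0435 otherwise. The deviations in a fraction sum to 0 for each gene, so the negative values follow from the positive ones and are no separate evidence. All 3 exceed 0.1, so the numbers were taken, from the data, to pair the libraries. No libraries were duplicates (chi-square per gene 5.96 to 16.8 over pairs).

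The members and lists were chosen with earlier results of these data known. Described in full were members past the threshold in either fit, the smallest p in each role, and Ulk1, Becn1, Map1lc3b and Sqstm1. From each other list up to 2 higher and 2 lower genes past the threshold without the block or, if none, with it, were named. Sequences are from RefSeq (GRCm38.p6).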

Additional observations from a re-analysis of the deposited data

How the results depend on the processing

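Members past the threshold depended on pairing the libraries, on the testing tool and on the filter, and not on the scaling. Without the block, 0 members were higher under all settings, and 0 were lower except 1 (Atg9b) with no filter and with DESeq2. With the block, 1 was higher and 3 lower under TMM, RLE size factors, library totals and limma-voom, 0 and 2 with DESeq2, and 3 and 3 with no filter, where Atg2b and Atg9a were added. With the block and a pair left out, 0 were higher and 1 to 2 lower. The median log2 change of members stayed between -0.015 and 0.023 over all settings.

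Over all genes, 160 were higher and 30 lower in the main fit. These counts were 494 and 169 with no filter, 268 and 66 with DESeq2, 1196 and 786 with the replicate block, 1182 and 793 with the block and RLE factors, 1186 and 775 with library totals, 1200 and 778 with limma-voom, 423 and 193 with DESeq2, and 1458 and 812 with no filter. With a library left out they were 21 to 102 and 4 to 26, and with the block and pair 1, 2 or 3 left out 506, 1029 and 637 higher and 199, 764 and 249 lower. Of the alternatives for the 21 described genes, 337 kept their side of the threshold, 88 gained a call and 16 lost it, and none changed direction. Atg10, the member with the fewest counts, had the widest interval in both fits. The causes of the shifts were not tested.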
